A study of Mus musculus with 17 samples.

Results

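Quiescent hepatic stellate cells (HSCs) are the vitamin A-storing pericytes of the liver sinusoid, and they are the main source of fibrous matrix once they turn into myofibroblasts. Lrat, Reln, Hand2, Des, Dcn, Ecm1, Ngfr, Pdgfrb, and Vim are 9 genes whose products mark these cells or the mesenchymal cells around them, and they cover retinol storage, a lineage transcription factor, secreted matrix proteins, 2 growth factor receptors, and 2 intermediate filament proteins. The members were all probes that carried 1 of these 9 symbols in the deposited log2 ratio table, which gave 17 of 41174 probes and 9 of 21452 genes. Of the 17 probes, 14 were bright enough to be tested, and each of these 14 gave a liver signal well above background on all 17 arrays. The remaining 3 were the dimmest probes of Reln, Dcn, and Vim, which were above background on 1, 1, and 0 arrays. For each gene the brightest probe stands for the gene unless another is named.

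The livers came from 17 male mice, labeled as C57BL/6N (the methods name C57BL/6J), after 3 months of feeding and a single gavage. By the methods, mice of this model were killed within hours of the gavage, so the binge comparisons concern an early time. Chow mice (n = 4) ate chow and received maltose, 1B mice (n = 4) ate chow and received 1 ethanol binge of 5 g/kg, HFD mice (n = 4) ate high-fat diet and received maltose, and HFD+1B mice (n = 5) ate high-fat diet and received the same binge. Each mouse gave 1 array, on which its Cy5-labeled whole-liver RNA was set against 1 Cy3-labeled reference RNA used throughout, and a value below is the log2 ratio of liver to reference. Whole liver RNA was measured, so more stellate cells and more RNA per stellate cell cannot be told apart. Array medians of the Cy5 intensity lay between 69 and 138 units for chow-fed mice, 63 and 98 for HFD mice, and 90 and 158 for HFD+1B mice, and the number of arrays limits the precision. The mean log2 ratio of 5 ribosomal RNA probes was -3.03 in HFD mice, against 0.44 in chow, -0.36 in 1B, and 0.17 in HFD+1B mice, and its part in the differences that involve the HFD group was not tested.

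In stellate cells, LRAT esterifies retinol for storage in lipid droplets, and HAND2 is a basic helix-loop-helix factor that keeps the cells in a resting state. Reelin, decorin, and ECM1 are secreted glycoproteins, of which decorin coats collagen fibrils and binds transforming growth factor β. PDGFRβ is the receptor through which platelet-derived growth factor drives stellate cell growth, NGFR (p75) is a neurotrophin receptor, and desmin and vimentin are the intermediate filaments by which the cells are often stained. Several members are not exclusive to HSCs: hepatocytes make ECM1, macrophages and endothelial cells contain vimentin, vascular smooth muscle contains desmin, and portal fibroblasts make decorin and PDGFRβ.

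The probes that carry the results on Hand2, Des, and Dcn are shown here as the deposited table gives them, because the place of a probe decides what it can report. The 60-base probes of Hand2 overlap, and capitals mark the 23 bases at the end of probe 1 that are also the start of probe 2, so they are not independent of each other. In the probes of Des and Dcn, capitals mark the TAA stop codon that ends the coding sequence, at bases 54 to 56 and 55 to 57 of the probe. Between the probes of any other member, the longest shared stretch was 5 to 7 bases.
Hand2 probe 1: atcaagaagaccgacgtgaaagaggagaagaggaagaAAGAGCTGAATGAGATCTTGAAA
Hand2 probe 2: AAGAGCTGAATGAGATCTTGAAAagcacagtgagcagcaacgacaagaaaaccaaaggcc
Des probe 1: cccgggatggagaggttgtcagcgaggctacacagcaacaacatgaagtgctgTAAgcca
Dcn probe 1: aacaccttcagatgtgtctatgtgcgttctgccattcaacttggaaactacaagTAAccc

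Lrat, Dcn, and Pdgfrb were higher in both HFD groups than in chow mice, and Des was highest in the HFD+1B group (the plot of the 9 genes by mouse). Group means were compared by limma in 1 fit of 34664 probes and 17 arrays, and a gene was called where its p, adjusted across every probe tested by the Benjamini-Hochberg method, was at most 0.05. In HFD mice 3 of 9 members rose against chow and 0 fell (Lrat, Dcn, and Pdgfrb), where 9.97% of all probes were called in either direction and 3.88% were called higher. In HFD+1B mice 4 of 9 rose against chow and 0 fell (the same 3 and Des), beside 14.8% of all probes in either direction and 7.79% higher. The median log2 difference of the 9 members was 0.56 and 0.58 in these comparisons, where the median over all genes tested was under 0.01 in size. The 9 were chosen with earlier results of these data known, which limits what their contrast with all probes can show. By the rule of a 2-fold change with an unadjusted p of at most 0.05, 0 members passed in 1B (0.854% of all probes) and 0 in HFD (1.6%) against chow, 2 in HFD+1B against chow (Lrat and Dcn; 2.46%), 0 in HFD+1B against HFD (1.75%), 1 in HFD+1B against 1B (Vim; 1.52%), and 0 in the interaction (2.03%). Whether a member passes this rule can depend on the processing. Lrat in HFD fell short of it at a log2 difference of 0.95, where the deposited ratios gave 1.87. Those ratios differ in the background offset and in other steps, and the part of each was not tested. Both comparisons with chow use the same 4 chow mice and so are not independent of each other.

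**Figure D1:**
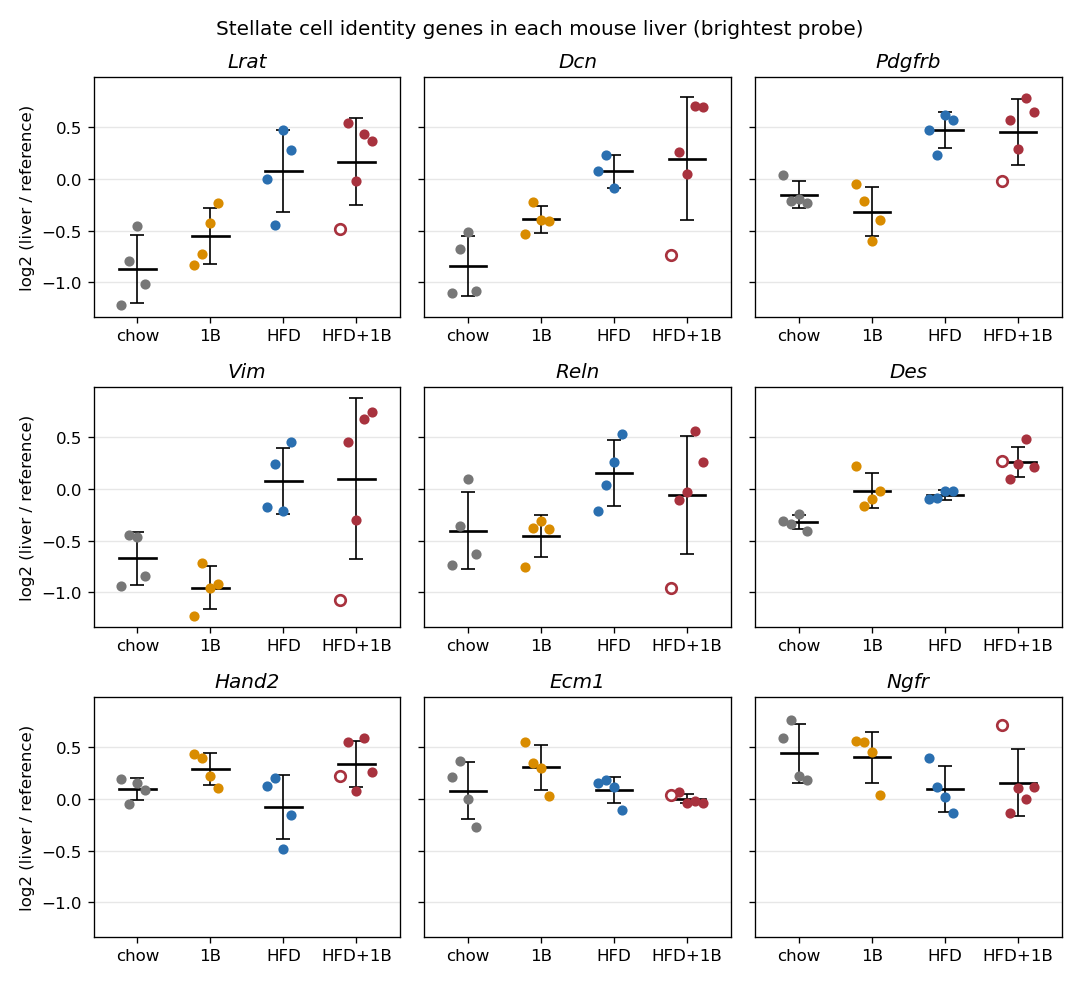
Log2 ratio of liver to reference (vertical axis) for the brightest probe of each of the 9 genes, 1 point per mouse, in chow, 1B, HFD, and HFD+1B mice; lines and bars give the group mean and SD, and the open circle is HFD+1B mouse 1. Lrat, Dcn, Pdgfrb, and Vim sit higher in HFD and in most HFD+1B mice, HFD+1B mouse 1 lies at the bottom of its group for these genes and for Reln, and the 5 HFD+1B values of Des (0.09 to 0.48) lie above the 4 of chow (-0.40 to -0.24).

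Lrat, the gene of the retinol-esterifying enzyme, was lowest in chow mice. Its values were -1.22, -0.79, -0.46, and -1.01 in the 4 chow livers and -0.83, -0.72, -0.42, and -0.23 in the 4 1B livers. They were 0.00, -0.45, 0.47, and 0.28 in the 4 HFD livers and -0.48, 0.54, -0.02, 0.43, and 0.36 in the 5 HFD+1B livers. Every HFD liver was above every chow liver, though HFD mouse 2 lay only just above chow mouse 3, and HFD+1B mouse 1 fell inside the chow range. The log2 difference to chow was 0.95 ± 0.23 (SE) in HFD (1.93-fold, limma adjusted p = 0.0146) and 1.04 ± 0.22 in HFD+1B (2.05-fold, limma adjusted p = 0.00297). Between HFD+1B and 1B mice it was 0.72 ± 0.22 (limma adjusted p = 0.0429), and between HFD+1B and HFD mice 0.09 ± 0.22, with a 95% interval of -0.37 to 0.55. In order of their means the groups ran from chow (-0.87 ± 0.33 SD) and 1B (-0.55 ± 0.27) to HFD (0.08 ± 0.40) and HFD+1B (0.17 ± 0.42), and neither of the lower pair nor of the upper pair of neighbors differed beyond its spread.

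The second probe of Lrat, to the same transcript and with at most 6 bases in common, gave the same order with less spread. Chow and 1B mice had ratios of -0.38 ± 0.09 (SD) and -0.20 ± 0.14, and HFD and HFD+1B mice of 0.26 ± 0.22 and 0.39 ± 0.27. The difference to chow was 0.64 ± 0.14 (SE) in HFD (limma adjusted p = 0.00687) and 0.77 ± 0.13 in HFD+1B (limma adjusted p = 0.000476), and neither HFD group overlapped with chow on this probe. Both Lrat probes were dim, with median Cy5 signals of 71 and 49 units above local background, and the offset of 50 units used in the background correction pulls the ratios of such probes toward 0. The deposited ratios, made without this offset and with other processing, gave differences to chow of 1.87 for HFD mice and 1.64 for HFD+1B mice on the brighter probe. The part of the offset in this was not tested. With the Cy5 channel alone the difference of the brighter probe in HFD mice was 0.28 (adjusted p = 0.739), and the call in HFD was lost when chow mouse 1 (0.83, adjusted p = 0.0527) or HFD mouse 3 (0.81, adjusted p = 0.0570) was left out. The call of HFD+1B against chow was lost with the Cy5 channel alone. That of HFD+1B against 1B held in only 13 of 28 other settings, over which the difference ranged from 0.63 to 1.07. On slides that held both groups, HFD exceeded chow on 3 of 3 slides by 0.35 to 1.49 and HFD+1B exceeded chow on 4 of 4 by 0.74 to 1.16.

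Hand2, the transcription factor gene, differed between the HFD+1B and the HFD group and was higher in the former. Its brighter probe read 0.12, 0.21, -0.48, and -0.16 in the 4 HFD livers and 0.22, 0.55, 0.08, 0.58, and 0.26 in the 5 HFD+1B livers. Ratios were 0.20, -0.05, 0.15, and 0.09 in chow and 0.43, 0.40, 0.22, and 0.10 in 1B livers. HFD mouse 3 was the lowest of the 17, and the HFD and HFD+1B groups overlapped. The difference of HFD+1B to HFD was 0.42 ± 0.14 (SE, limma adjusted p = 0.0419). It was 0.05 to 0.74 within 4 of 4 shared slides. With the Cy5 channel alone it was not called. The call was lost when HFD mouse 3 (0.28, limma adjusted p = 0.164), HFD+1B mouse 4 (0.36, limma adjusted p = 0.109), chow mouse 3 or 4, 1B mouse 3, HFD mouse 4, or HFD+1B mouse 2 was left out, and with the deposited ratios or the Tukey test of the methods.

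The overlapping dimmer Hand2 probe showed a wider distance from chow. Chow livers read -0.51, -0.59, -0.45, and -0.48, and the others lay between -0.33 and 0.06 (1B), -0.55 and -0.16 (HFD), and -0.28 and 0.33 (HFD+1B). All HFD+1B and all 1B livers were above all chow livers, while HFD livers overlapped with chow. HFD+1B exceeded chow by 0.54 ± 0.13 (SE, limma adjusted p = 0.00620) and HFD by 0.37 ± 0.13 (limma adjusted p = 0.0476), and 1B exceeded chow by 0.40 ± 0.13 (limma adjusted p = 0.117). On the brighter probe HFD+1B and chow differed by 0.24 ± 0.14 (limma adjusted p = 0.284), and by -0.09 when the Cy5 channel was used alone, so the call of Hand2 in HFD+1B against chow depended on the probe, and its direction on the use of the reference channel.

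Dcn, which encodes the collagen-binding proteoglycan decorin, was higher in both HFD groups than in chow. Its probe read -1.10, -0.68, -0.51, and -1.08 in chow livers and -0.54, -0.22, -0.40, and -0.40 in 1B livers. It read 0.08, 0.23, and -0.09 in HFD livers, where the spot of the fourth was marked as an outlier by the scanner software and left out, and -0.74, 0.26, 0.05, 0.70, and 0.70 in HFD+1B livers. The 3 HFD values were above all chow and all 1B values, and HFD+1B mouse 1 alone of its group fell inside the chow range. The difference to chow was 0.92 ± 0.26 (SE) in HFD (1.89-fold, n = 3, limma adjusted p = 0.0332) and 1.04 ± 0.23 in HFD+1B (2.06-fold, limma adjusted p = 0.00446). In HFD+1B the call held under all 28 other settings tried, with differences of 0.91 to 1.27. In HFD it was lost without any 1 of 5 mice (chow mice 1 and 4 and HFD mice 1, 2, and 3), where it was 0.83 to 1.00 with adjusted p of 0.0635 to 0.0927, and with arrays centred on the median (0.64, adjusted p = 0.117). The call in HFD was also lost with the Cy5 channel alone.

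Reln, the gene of the secreted signaling protein reelin, was not called in any comparison. Its brighter probe read -0.73, -0.35, 0.10, and -0.63 in the chow livers and -0.76, -0.38, -0.31, and -0.39 in the 1B livers. The HFD livers read -0.22, 0.04, 0.26, and 0.53 and the HFD+1B livers -0.96, -0.11, -0.03, 0.56, and 0.26. HFD+1B mouse 1 was the lowest of all 17 livers, and the HFD+1B group spanned the range of every other group. The difference to chow was 0.56 ± 0.25 (SE) in HFD (limma adjusted p = 0.173) and 0.35 ± 0.24 in HFD+1B (limma adjusted p = 0.408). The second probe of Reln, to a predicted transcript variant, had the opposite sign, with differences of -0.22 ± 0.15 for HFD and -0.16 ± 0.14 for HFD+1B mice.

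Ecm1, a matrix glycoprotein gene with a bright liver signal, gave differing results on its 2 probes (the plot of both probes of a gene). The brighter probe stayed within -0.27 and 0.55 in all 17 livers, its 5 HFD+1B values lay between -0.04 and 0.06, and its differences to chow were 0.01 ± 0.13 (SE) in HFD and -0.08 ± 0.12 in HFD+1B, with 95% intervals of -0.26 to 0.27 and -0.33 to 0.18. The dimmer probe read -0.16, -0.41, -1.86, and -0.62 in HFD livers and -0.10, 0.36, -0.35, 0.55, and 0.66 in HFD+1B livers, which overlapped. HFD mouse 3 was the lowest of all livers on that probe, and HFD+1B exceeded HFD by 0.99 ± 0.27 (limma adjusted p = 0.0160).

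**Figure D2:**
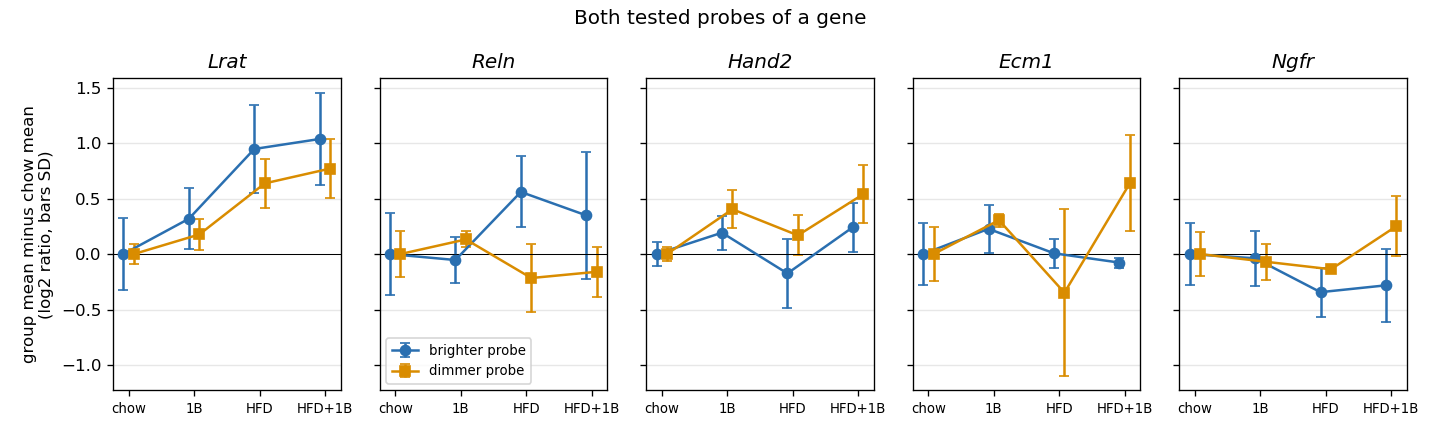
Group mean minus chow mean of the log2 ratio (vertical axis, bars SD) in chow, 1B, HFD, and HFD+1B mice for the brighter (circles) and the dimmer (squares) tested probe of the 5 genes with 2 tested probes. Both Lrat probes rise in the HFD groups (by 0.95 and 0.64, then 1.04 and 0.77), both Hand2 probes are higher in HFD+1B than in HFD, and the probes of Reln, Ecm1, and Ngfr go apart in HFD+1B.

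Pdgfrb, the gene of the platelet-derived growth factor receptor β, was higher in both HFD groups than in either chow-fed group. Its probe read 0.04, -0.21, -0.20, and -0.24 in chow livers and -0.05, -0.22, -0.60, and -0.40 in 1B livers. It read 0.47, 0.23, 0.62, and 0.57 in HFD livers and -0.02, 0.56, 0.29, 0.78, and 0.65 in HFD+1B livers. All HFD livers were above all chow-fed livers, and 4 of 5 HFD+1B livers were, with HFD+1B mouse 1 between chow mouse 1 and the others. The difference to chow was 0.62 ± 0.16 (SE) in HFD (1.54-fold, limma adjusted p = 0.0176) and 0.61 ± 0.15 in HFD+1B (1.52-fold, limma adjusted p = 0.00897). HFD+1B exceeded 1B by 0.77 ± 0.15 (1.71-fold, limma adjusted p = 0.00274) and without overlap, and it differed from HFD by -0.02 ± 0.15 with a 95% interval of -0.33 to 0.29. The call in HFD against chow was lost with the slide as a block (0.57, adjusted p = 0.0509), with median centring (0.44, adjusted p = 0.102), and when either chow mouse 4 (0.59, adjusted p = 0.0537) or HFD mouse 3 (0.57, adjusted p = 0.0593) was left out. With the Cy5 channel alone this call was lost too, as were the calls of HFD+1B against chow and against 1B.

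Ngfr, the p75 neurotrophin receptor gene, was not called on its brighter probe. Ratios were 0.59, 0.77, 0.22, and 0.18 in the chow livers and 0.56, 0.55, 0.46, and 0.04 in the 1B livers. The HFD livers read 0.39, 0.11, 0.02, and -0.13 and the HFD+1B livers 0.71, -0.14, 0.10, 0.00, and 0.11. All groups overlapped, and HFD+1B mouse 1, the lowest of its group for 5 other members, was the highest of its group here. The differences to chow were -0.34 ± 0.18 (SE, limma adjusted p = 0.240) in HFD and -0.28 ± 0.17 (limma adjusted p = 0.326) in HFD+1B. On the dimmer probe HFD+1B exceeded HFD by 0.39 ± 0.13 (limma adjusted p = 0.0418), with 5 HFD+1B values from -0.25 to 0.48 above 4 HFD values from -0.36 to -0.29.

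Des, the desmin gene, was the member with the least spread. It read -0.31, -0.34, -0.24, and -0.40 in chow livers and 0.22, -0.17, -0.10, and -0.02 in 1B livers. It read -0.10, -0.09, -0.02, and -0.02 in HFD livers and 0.27, 0.09, 0.24, 0.48, and 0.22 in HFD+1B livers. Chow livers were below all others, and HFD+1B livers were above all HFD livers but overlapped with 1B mouse 1. HFD+1B exceeded chow by 0.58 ± 0.09 (SE, limma adjusted p = 0.000245) and HFD by 0.32 ± 0.09 (1.25-fold, limma adjusted p = 0.0212), and the latter was lost without HFD+1B mouse 4 (0.26, adjusted p = 0.0616). The call against HFD was also lost with the Cy5 channel alone. The differences of 1B and of HFD to chow, 0.31 ± 0.10 (limma adjusted p = 0.0983) and 0.26 ± 0.10 (limma adjusted p = 0.0902), were not called. Both passed the Tukey test of the methods, which is not adjusted over probes. For Des the interaction of diet and ethanol was 0.01 ± 0.13, with a 95% interval of -0.27 to 0.29. Within slides HFD+1B exceeded chow on 4 of 4 by 0.33 to 0.65 and HFD on 4 of 4 by 0.26 to 0.51.

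Vim, the vimentin gene, showed the widest spread among HFD+1B mice. It read -0.94, -0.45, -0.46, and -0.84 in chow and -1.23, -0.72, -0.96, and -0.92 in 1B livers. It read -0.17, 0.24, -0.21, and 0.45 in HFD livers and -1.08, 0.45, -0.30, 0.68, and 0.74 in HFD+1B livers. All HFD livers were above all chow-fed livers, and so were 4 of 5 HFD+1B livers, while HFD+1B mouse 1 was below every chow liver. HFD+1B exceeded 1B by 1.06 ± 0.29 (SE, 2.08-fold, limma adjusted p = 0.0241), whereas the differences to chow of 0.75 ± 0.30 in HFD and 0.77 ± 0.29 in HFD+1B were not called (limma adjusted p = 0.124 and 0.0815). With the slide as a block both passed (0.71, adjusted p = 0.0418, and 0.68, adjusted p = 0.0239), and without HFD+1B mouse 1 they were 0.75 (adjusted p = 0.0295) and 1.06 (adjusted p = 0.00188). The difference between HFD+1B and 1B in turn was lost without any 1 of 5 mice (1B mice 1 and 3 and HFD+1B mice 2, 4, and 5), where it was 0.90 to 1.05 with adjusted p of 0.0555 to 0.0777. With the Cy5 channel alone its call was lost too.

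**Figure D3:**
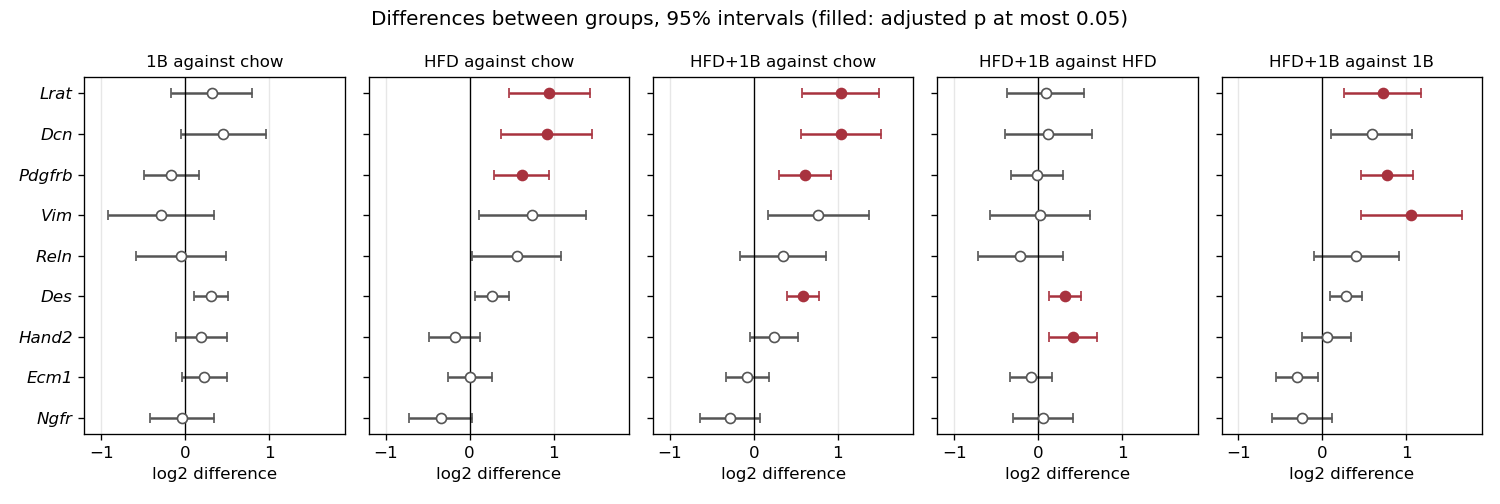
Log2 difference between groups (horizontal axis) with its 95% interval for the 9 genes in 5 comparisons, from 1 limma fit; filled points have an adjusted p of 0.05 or less. No member passes in 1B against chow, while Lrat, Dcn, and Pdgfrb pass in both HFD groups against chow, Des in HFD+1B against chow, Hand2 and Des in HFD+1B against HFD, and Lrat, Pdgfrb, and Vim in HFD+1B against 1B.

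The binge on chow diet moved no member past the threshold. In 1B against chow, 0 of 9 members were called by limma, where 3.62% of all probes were, and on the brightest probes only Des had an unadjusted p below 0.05 (0.00508). The dimmer Hand2 probe had an unadjusted limma p of 0.00677 (adjusted p = 0.117). Differences ran from -0.29 in Vim to 0.45 in Dcn with a median of 0.19, and the groups did not overlap for 1 member (Des), beside 11.1% of all probes. For comparison, groups did not overlap for 5 members in HFD against chow (Lrat, Des, Dcn, Pdgfrb, and Vim; 18.3% of all probes) and for 1 member in HFD+1B against chow (Des; 14.5%).

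On HFD, the binge went with 2 called members, and the diet under ethanol with 3. In HFD+1B against HFD, Hand2 and Des rose and 0 fell, where 17.9% of all probes were called in either direction and 9.92% were higher, and the median difference of the 9 members was 0.06. In HFD+1B against 1B, Lrat, Pdgfrb, and Vim rose and 0 fell, beside 10% of all probes in either direction and 5.31% higher, with a median of 0.40. Dcn was not called there (0.59 ± 0.23, limma adjusted p = 0.123) but passed with the slide as a block (0.65, limma adjusted p = 0.0320). The groups did not overlap for 1 member in each (Des, beside 14.4% of all probes, and Pdgfrb, beside 10.4%). In the interaction 0 of 9 members were called by limma, where 4.11% of all probes were, 0 had an unadjusted p below 0.05, and estimates ran from -0.33 in Dcn to 0.31 in Vim with standard errors of 0.13 to 0.41.

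HFD+1B mouse 1 lay at an end of its group for several members, though the gap rule given below for flagged results flagged it for none. This mouse was the lowest of the group for Lrat, Dcn, Pdgfrb, Vim, and Reln and the highest for Ngfr, while its Des value was the second highest. The mean of the 9 members relative to chow was 0.07 in this mouse and 0.34 to 0.76 in the other 4, against 0.37 to 0.40 in HFD mice, 0.05 to 0.17 in 1B mice, and -0.17 to 0.14 in chow mice. Its array lay on slide 1 with chow mouse 1, 1B mouse 1, and HFD mouse 1, and chow mouse 1 and 1B mouse 1 were also the lowest of their groups for Lrat, Dcn, Vim, and Reln. For Pdgfrb these 2 mice were instead the highest of their groups, and HFD mouse 1 was the lowest of its group for Reln but not for Lrat, Dcn, or Vim. Without HFD+1B mouse 1, 5 members were called in HFD+1B against chow (Vim was added) and 5 against 1B (Reln and Dcn were added), and the 2 against HFD were again Hand2 and Des. The share of all probes called without this mouse was not counted, so these counts cannot be set against it.

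Within groups, several members varied together from mouse to mouse. After the group mean was subtracted, Pearson's r was 0.96 between Dcn and Vim (16 arrays), 0.87 between Reln and Dcn (16 arrays), 0.83 between Reln and Vim (17 arrays), and 0.76 between Lrat and Reln (17 arrays). Without HFD+1B mouse 1 these were 0.89, 0.72, 0.65, and 0.63. For Ngfr, r was 0.67 to Ecm1, -0.67 to Lrat, -0.64 to Reln, -0.56 to Vim, and -0.47 to Dcn. Without that mouse these were 0.81, -0.50, -0.38, -0.18, and 0.07, so the negative values to Vim and Dcn rested largely or wholly on it. These values share arrays, slides, and normalization and are given as a description of 36 pairs.

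Among all genes, the closest patterns to a called member over the arrays, listed here, were not those of other members. For Dcn they were Adamtsl2, Igfbp7, and Lhfp (Pearson's r of 0.98, 0.98, and 0.96 over 16 arrays), and for Vim Tgfb1, Atpif1, and Tmsb10 (0.96, 0.96, and 0.96 over 17 arrays). Adamtsl2 also stands in the list of further stellate cell markers below, and Tgfb1 in the activation list. For Lrat they were Trp53i11, Ctps, and Smox (0.96, 0.94, and 0.94), and for Pdgfrb Uap1l1, Anxa5, and Cidea (0.96, 0.94, and 0.93). For Hand2 they were Ppp1r13l, Vstm5, and Socs3 (0.93, 0.93, and 0.92), and for Des Slc16a6, Chka, and Actg1 (0.93, 0.92, and 0.91). Each list holds the highest of 17989 genes compared (18019 for Dcn), and the 17 arrays share 4 groups.

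The 100 bases before the start sites of Lrat, Vim, and Des are printed from RefSeq (GRCm38.p6), as examples of members called in HFD+1B against 1B (Lrat and Vim) and against HFD (Des). Capitals mark TATAA, the core of a TATA box, which stood 29 bases before the start of Lrat and 32 before that of Vim and was not found in the window of Des.
Lrat, chr3:82903975-82904074, minus strand: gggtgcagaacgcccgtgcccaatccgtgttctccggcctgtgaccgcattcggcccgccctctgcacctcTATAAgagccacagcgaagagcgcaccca
Vim, chr2:13574211-13574310, plus strand: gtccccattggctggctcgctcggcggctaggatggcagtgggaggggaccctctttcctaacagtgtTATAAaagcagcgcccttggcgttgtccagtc
Des, chr1:75360192-75360291, plus strand: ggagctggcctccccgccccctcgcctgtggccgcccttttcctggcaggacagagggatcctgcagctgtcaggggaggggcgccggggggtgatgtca
A promoter was found for 7 members (not for Dcn or Pdgfrb). In the 250 bases before the start, on either strand, TATAA stood in 3 of 7 (Lrat, Vim, and Ecm1) and in 22.8% of 32851 promoters, GGGCGG in 6 of 7 (all but Vim) and in 32.7%, and the E-box CANNTG, the kind of site that basic helix-loop-helix factors bind, in 6 of 7 (all but Vim) and in 66.2%. The CArG box, known from smooth muscle genes, stood in 0 of 7 and in 1.47%. A CArG box can contain the letters of TATAA, and in Vim TATAA also matched on the other strand, overlapping the first match. A match of letters is a description and not a site of binding.

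Other genes known from stellate cells moved in both directions in HFD+1B mice. Of 29 further markers tested (30 listed; Hhip was above background on 0 arrays), 4 rose and 0 fell in HFD against chow, with a median of 0.24, led by Cygb (0.95 ± 0.26, limma adjusted p = 0.0263), the globin gene of stellate cells, Adamtsl2 (0.95 ± 0.24, 0.0203), and Prelp (0.72 ± 0.19, 0.0211). HFD+1B mice had 8 higher and 3 lower than chow mice, with a median of 0.19. The largest were Steap4 (2.99 ± 0.55, 0.00136), an iron reductase gene that hepatocytes also express, Cxcl12 (-1.87 ± 0.19, 4.98e-06), a chemokine gene, and Nt5e (1.10 ± 0.16, 0.000148), the gene of the ectonucleotidase CD73. These counts stand beside 9.97% of all probes called in HFD (3.88% higher) and 14.8% in HFD+1B (7.79% higher) against chow.

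Genes of retinoid handling, the pathway of LRAT, were called in both directions in HFD+1B mice. In HFD against chow 0 of 23 rose and 1 fell, Cyp26b1 (-0.62 ± 0.19, limma adjusted p = 0.0492), which encodes an enzyme that clears retinoic acid. Against chow, HFD+1B mice had 4 higher and 3 lower, and the largest were Bco1 (1.50 ± 0.20, 5.21e-05), the gene of the enzyme that cleaves β-carotene, Stra6l (1.25 ± 0.14, 1.44e-05), a gene of a retinol transporter, and Cyp26a1 (1.22 ± 0.33, 0.0174), another retinoic acid hydroxylase gene. Against HFD, 6 rose and 3 fell. The shares of all probes called in either direction were 9.97%, 14.8%, and 17.9% in these 3 comparisons.

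Among genes of stellate cell activation (collagens, myofibroblast proteins, and matrix regulators), those called were mostly higher on HFD. In HFD against chow 8 of 23 rose and 1 fell, with Col1a1 (2.37 ± 0.43, limma adjusted p = 0.00279), S100a6 (1.17 ± 0.29, 0.0155), and Sparc (1.10 ± 0.26, 0.0124) the largest rises. The gene that fell was Postn (-0.95 ± 0.13, limma adjusted p = 0.000323). No contractile gene was called in HFD. Acta2 (-0.27 ± 0.17), Tagln (-0.19 ± 0.13), Cnn1 (-0.13 ± 0.13), and Myl9 (-0.26 ± 0.13) were negative, and Tpm1 (0.53 ± 0.18) and Tpm2 (0.69 ± 0.24) were positive. Against chow, 14 of 23 rose in HFD+1B mice and 0 fell, led by Col1a1 (2.19 ± 0.43, 0.00205), Spp1 (1.84 ± 0.45, 0.00961), and Sparc (1.42 ± 0.25, 0.000618). Against HFD, 6 rose and 0 fell. Among the 6 were Acta2 (1.41 ± 0.15, limma adjusted p = 2.82e-05), Tagln (0.72 ± 0.13, 0.00103), Myl9 (0.54 ± 0.12, 0.00466), and Postn (0.63 ± 0.12, 0.00214). Cnn1, Tpm1, and Tpm2 were not called there. The median over the list was 0.44, 0.60, and 0.35 in these comparisons, where it was 0.56, 0.58, and 0.06 over the 9 members. In the same order, 9.97%, 14.8%, and 17.9% of all probes were called, and 3.88%, 7.79%, and 9.92% were called higher.

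Of 21 partners of the members (ligands and co-receptors, reelin receptors, small proteoglycans, filament-binding proteins, and HAND2 partners), 3 rose and 1 fell in HFD against chow, and 8 rose and 2 fell in HFD+1B against chow. Beside these, 9.97% of all probes were called in HFD and 14.8% in HFD+1B. Vldlr, a reelin receptor gene, rose in both (0.59 ± 0.16, limma adjusted p = 0.0279, and 1.34 ± 0.15, 1.20e-05), as did Lum, the gene of the proteoglycan lumican (1.00 ± 0.31, 0.0484, and 1.05 ± 0.29, 0.0203). Tbx20, a heart transcription factor gene, fell in HFD (-0.89 ± 0.15, 0.00152), and Plec, the gene of the filament linker plectin, rose in HFD+1B (0.89 ± 0.14, 0.000263).

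Some markers of other cells that express some of the members were called too (the plot of gene lists). All probes were called at shares of 9.97% in HFD and 14.8% in HFD+1B against chow. Of 13 macrophage and Kupffer cell genes, 3 rose and 0 fell in each HFD group against chow, with Cd68 at 1.28 ± 0.21 (limma adjusted p = 0.00121) and 1.37 ± 0.20 (0.000116), C1qb at 0.88 ± 0.25 (0.0301) and 0.86 ± 0.23 (0.0173), Adgre1 at 0.67 ± 0.19 (0.0289) in HFD, and C1qa at 0.95 ± 0.27 (0.0255) in HFD+1B. The mean of that list relative to chow was 0.37 to 0.53 in HFD mice, 0.17 to 0.75 in HFD+1B mice, and -0.20 to 0.26 in chow mice, and all but 1 of its 14 genes were above background on at least 16 arrays. Its part in the differences of the members was not tested.

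Of 12 genes of portal fibroblasts and mesothelium, 2 rose in HFD (Gas6, 0.81 ± 0.22, limma adjusted p = 0.0257, and Eln, 0.52 ± 0.15, 0.0304) and 5 in HFD+1B (led by Gas6, 1.26 ± 0.21, 0.000454, Cd34, 0.80 ± 0.19, 0.00659, and Eln, 0.71 ± 0.14, 0.00165), and the list mean was 0.16 to 0.28 in HFD mice and 0.21 to 0.60 in HFD+1B mice against -0.09 to 0.08 in chow. Of 7 vascular smooth muscle genes 0 were called in HFD and 4 rose in HFD+1B, led by Acta2 (1.15 ± 0.16, 0.000126), Tagln (0.53 ± 0.13, 0.00724), and Actg2 (0.53 ± 0.10, 0.00168). Acta2, Cnn1, and Tagln stand in the activation list as well. The shares of all probes called were 9.97% in HFD and 14.8% in HFD+1B against chow. The mean of the smooth muscle list was 0.32 to 0.55 for HFD+1B mice and -0.21 to 0.08 for HFD mice, beside -0.07 to 0.06 for chow and 0.06 to 0.49 for 1B mice, and its part in the rise of Des was not tested.

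Of 10 hepatocyte genes tested, 1 rose and 2 fell in HFD (Apob, -2.77 ± 0.50, limma adjusted p = 0.00279, Tat, -1.36 ± 0.39, 0.0347, and Glul, 0.61 ± 0.17, 0.0311), and 1 rose and 1 fell in HFD+1B (Tat, 1.43 ± 0.34, 0.00827, and Cyp2e1, -1.04 ± 0.24, 0.00566). The hepatocyte list mean was -0.53 to -0.21 in HFD mice and -0.31 to 0.17 in HFD+1B mice. Of 11 sinusoidal endothelial genes 2 rose and 0 fell in HFD, and 2 rose and 3 fell in HFD+1B, led by Lyve1 (1.37 ± 0.15, 7.13e-05, and 3.19 ± 0.15, 1.07e-09), Stab2 (0.59 ± 0.10, 0.00204, in HFD), Kdr (-1.05 ± 0.13, 2.19e-05, in HFD+1B), and Clec4g (-0.82 ± 0.19, 0.00751, in HFD+1B). The endothelial list mean was 0.26 to 0.45 in HFD, 0.05 to 0.35 in HFD+1B, and -0.07 to 0.14 in chow mice. Its part in the differences of the members was not tested. Of the neutrophil genes, 2 of 10 rose in HFD+1B against chow and 1 fell (S100a8, 1.46 ± 0.10, 1.35e-07, S100a9, 1.04 ± 0.20, 0.00162, and Csf3r, -1.04 ± 0.23, 0.00469), 1 of 7 nerve and Schwann cell genes fell (Nrn1, -0.63 ± 0.13, 0.00397), and 0 of 8 lymphocyte genes were called. In HFD against chow S100a8 rose (0.55 ± 0.11, limma adjusted p = 0.00426) and Nrn1 fell (-0.56 ± 0.13, 0.0156), with no other call in these 3 lists. S100a8 was above background on at most 12 of 17 arrays, which limits both of its calls. The counts of all these lists stand beside 9.97% of all probes called in HFD and 14.8% in HFD+1B against chow.

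**Figure D4:**
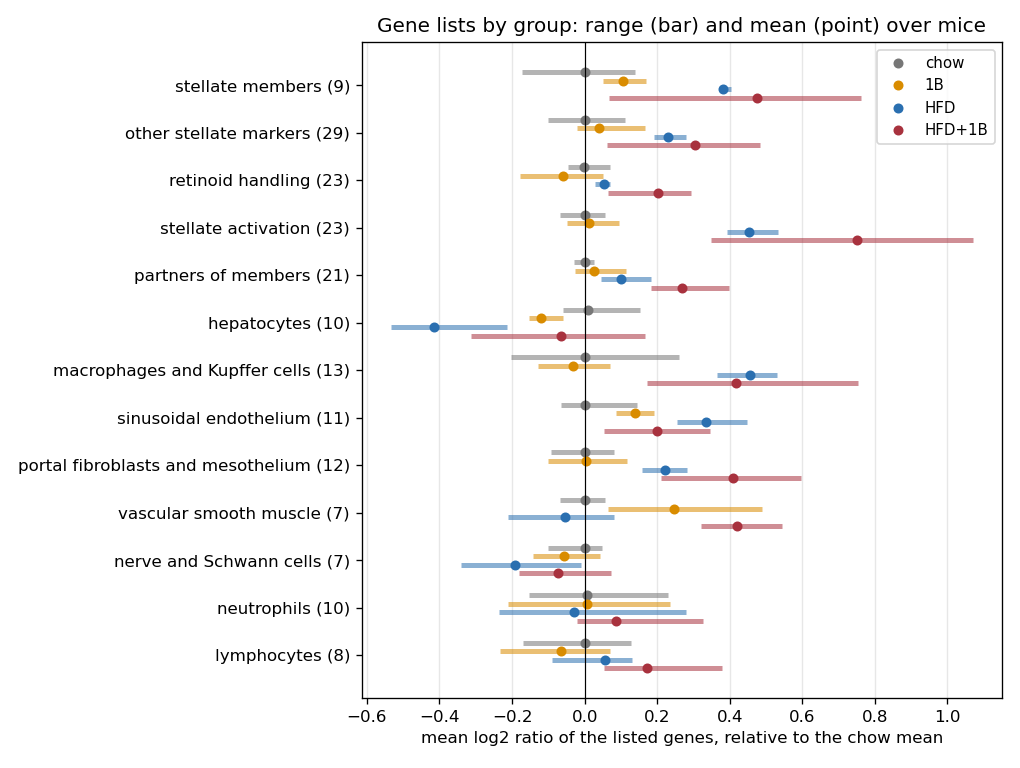
Mean log2 ratio of the genes of each list relative to the chow mean (horizontal axis), as the range (bar) and mean (point) over the mice of each group; the number of genes is in parentheses. The 9 members (0.37 to 0.40 in HFD, 0.07 to 0.76 in HFD+1B) and the activation list (0.39 to 0.53 and 0.35 to 1.07) are higher on average in both HFD groups than in chow. So are the macrophage, portal fibroblast, and sinusoidal endothelial lists. The smooth muscle list is higher on average in 1B and HFD+1B mice than in HFD mice.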

How the data were processed

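Total liver RNA of 17 mice was labeled with Cy5 and hybridized with a common Cy3-labeled reference on 2-color Agilent arrays (5 slides, 1 scan day, no dye swap). The reference is described in differing ways, as assorted mouse RNA and as liver RNA. The deposited scanner files hold spot intensities from Feature Extraction 11.5.1.1, and the deposited series table holds log2 ratios that the authors took from its processed signals. The table served for gene symbols and as an alternative.

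Intensities were background-corrected (normexp, offset 50) and loess-normalized within arrays with limma 3.58.1 in R 4.3.3 (data.table, version 1.17.8). Scanner outlier spots were left out and spots of a probe averaged. Probes well above background in Cy5 on at least 4 of 17 arrays, with a value in each group, were tested (34664 of 41174). Group means were fitted by lmFit and eBayes, and p-values adjusted by Benjamini and Hochberg over all probes tested. The scripts were tested on simulated data. Labels name mice only by group and number, so p-values measure the spread between these livers.

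The members and the gene lists were chosen with earlier results of these data known. Genes named are all members, the 3 largest called changes of each list in HFD and in HFD+1B against chow, the 3 genes most correlated with each called member, and the ribosomal RNA probes. The contractile genes and Postn of the activation list are named as well. Alternatives were the deposited ratios, other background correction, normalization and filters, Cy5 alone, slide or replicate number as a block, a 2-fold rule, the methods' Tukey test after an analysis of variance, the mean of a gene's probes, and leaving out each mouse.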

Additional observations from a re-analysis of the deposited data

Results flagged for a closer look

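Chow mouse 1 lay apart from the other 3 chow mice for Pdgfrb. Its log2 ratio was 0.04, the others lay between -0.24 and -0.20, and the gap took up 0.855 of the range of the group. Of 55 groups of member probes examined this way 1 stood out, where about 1 in 20, or 2.8, would by chance.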

How the results depend on the processing

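Of 54 comparisons of a member, 12 were called, 8 were called only under an alternative and 34 under none, of which 20 changed sign under at least 1 setting. Dcn in HFD+1B against chow was called under all 28 other settings, and the interaction had 0 members called under each setting run. Without 1 mouse, the members called ranged from 0 to 0 in 1B against chow, 0 to 4 in HFD against chow, 4 to 5 for HFD+1B against chow, 0 to 2 for HFD+1B against HFD, 1 to 5 for HFD+1B against 1B, and 0 to 0 in the interaction. In HFD against chow 0 were called without HFD mouse 3 and 1 without chow mouse 1 or 4. In HFD+1B against HFD 0 were called without HFD+1B mouse 4, and 1 (Des) without chow mouse 3 or 4, 1B mouse 3, HFD mouse 3 or 4, or HFD+1B mouse 2. In HFD+1B against 1B 1 (Pdgfrb) was called without 1B mouse 3 or HFD+1B mouse 4 or 5, and 5 without HFD+1B mouse 1. The share of all probes called was not counted for the fits without 1 mouse.

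From the Cy5 channel alone, 0 members passed for HFD and 2 (Des and Dcn) for HFD+1B against chow, and 0 for HFD+1B against either HFD or 1B, and Hand2 in HFD+1B against chow turned to -0.0904. With a 2-fold change and unadjusted p as the rule the members that passed were 0 for HFD and 2 for HFD+1B against chow, 0 for HFD+1B against HFD and 1 against 1B. Median centring left 1 (Lrat) in HFD against chow. The deposited ratios left 1 (Des) in HFD+1B against HFD, as did the Tukey test, which called 1 (Des) in 1B against chow. Except for the 2-fold rule, the share of all probes called was not counted for these settings. The causes were not tested.

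Deviations of mice with the same number correlated at a median of 0.18 (-0.13 to 0.48 over 24 pairs), against -0.05 for different numbers, and those on the same slide at 0.20, against -0.04 for different slides. Many pairs with the same number also shared a slide, so these 2 medians rest in part on the same pairs. Of the arrays whose number another group shared, 9 matched best with their own number. No label ties the numbers to a batch, though number 1 lay on slide 1 in every group. Not every pair was positive, so the numbers were not taken as pairs. With the replicate number as a block, 0, 4, 4, 2, 3 and 0 members were called in the 6 comparisons in the order given above. In the same order, the probes called rose from 1256, 3457, 5123, 6218, 3471, and 1424 to 1548, 4893, 5849, 8487, 4135, and 2913 of 34664. The dimness of Lrat, and 4 or 5 livers a group, limit these results.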
